A study of Mus musculus with 4 samples.

Results

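The 9 genes Lgr5, Ascl2, Axin2, Smoc2, Ephb2, Ephb3, Sox9, Cd44 and Myc are genes of the intestinal crypt base or direct targets of Wnt signalling. They were chosen by name: a probe belonged to them if its gene symbol in the platform annotation, or the current form of that symbol, was 1 of the 9. All 9 were found, with 14 probes, among 16637 named genes and 21020 probes with 1 gene symbol. Colon RNA was measured on 1-colour arrays with 1 array per group, which gives 4 arrays in all. The arrays held RNA of mice given TNBS mixed with ginger extract (TNBS/ginger), TNBS mixed with zingerone (TNBS/zingerone), TNBS alone, or the vehicle alone (mock). TNBS, trinitrobenzene sulfonic acid, is a hapten that, given in ethanol, is used to induce colitis in rodents, and zingerone is a phenolic ketone of ginger. Every group had 6 female mice out of 24, received 50% ethanol in a volume of 0.1 ml, and was sacrificed on day 7, and the TNBS dose was 250 mg/kg in the 3 groups that received it. The strain is labelled BALB/c for mock and BALC/c for the other groups. The ginger extract and zingerone were given in various amounts. The labels tie no amount to an array, give no age, and leave unsaid whether an array held RNA of a single animal or of a pool.

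The colon lining is renewed from stem cells at the base of the crypts. Wnt ligands bind Frizzled and LRP receptors, which halts the breakdown of beta-catenin, and beta-catenin then works with TCF factors to switch on target genes. R-spondins strengthen the signal by binding Lgr receptors, and secreted antagonists and the feedback gene Axin2 restrain it. Ephb2 and Ephb3 are Wnt targets that keep cells in order along the crypt, and Cd44 and Myc are Wnt targets that many other cell types also use.

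Values are Cy3 intensities as deposited, on a linear scale on which the 4 arrays share nearly the same distribution, so each is mainly a rank within its array. There were no replicates, so differences are given without errors or p-values, no test was run, and the small number of arrays limits how precise any value is. A gene is called measured if, on 1 or more arrays, the mean of its probes was as bright as the array's median named probe (270.5 on mock), as for 10056 genes, and 2 arrays are said to differ if they lie at least 2-fold apart, a log2 difference of at least 1. Of the 9 members 8 were measured. By the same limit 9 of their 14 probes were measured, and the other 5 (the Lgr5 probe, 1 each of Ascl2 and Ephb2, and 2 of Cd44) are called dim. Of markers of the labelled tissue, 15 of 15 epithelial genes and 10 of 10 genes of differentiated colon surface cells were measured. So were 9 of 9 smooth muscle genes, where 10056 of all 16637 named genes were. Olfm4, a common marker of crypt base cells, had no named probe.

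Promoter sequence is shown for Ascl2 and Cd44, the members with a RefSeq window whose probes differed most between arrays. RefSeq promoter windows (GRCm38.p6) were matched for 5 of 9 members, Ascl2, Axin2, Ephb2, Ephb3 and Cd44, and not for Lgr5, Smoc2, Sox9 and Myc. Each run is the 250 bases before the start site in the gene's direction, 5′ to 3′, with CCAAT boxes (CCAAT) and the TCF core (CTTTG), found on either strand, in capitals. The Ascl2 run lies at chr7:142969265-142969514 and the Cd44 run at chr2:102901666-102901915, both on the minus strand.
Ascl2: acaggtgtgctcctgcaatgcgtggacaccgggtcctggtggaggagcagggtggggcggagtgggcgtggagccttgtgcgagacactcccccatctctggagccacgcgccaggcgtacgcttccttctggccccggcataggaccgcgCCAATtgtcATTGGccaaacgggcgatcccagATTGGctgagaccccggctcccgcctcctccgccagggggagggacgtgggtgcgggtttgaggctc
Cd44: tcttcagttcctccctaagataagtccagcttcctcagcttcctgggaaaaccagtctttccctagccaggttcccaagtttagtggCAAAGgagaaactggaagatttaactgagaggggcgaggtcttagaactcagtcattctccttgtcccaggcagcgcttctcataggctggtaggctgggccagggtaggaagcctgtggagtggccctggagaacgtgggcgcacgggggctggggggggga
The Ascl2 run held 3 CCAAT boxes and no TCF core, and the Cd44 run held 1 TCF core, read on the strand opposite to the gene, and no CCAAT box. Over 32851 windows of the same length 33.8% held a CCAAT box and 48.6% the TCF core. The TCF core lengthened by AA, AT, TA or TT (in 14.8% of windows, and by construction overlapping the core) and the AP-1 word TGANTCA (6.75%), searched on both strands, were in none of the 5 members' windows. These matches describe the letters of a short window only.

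**Figure D1:**
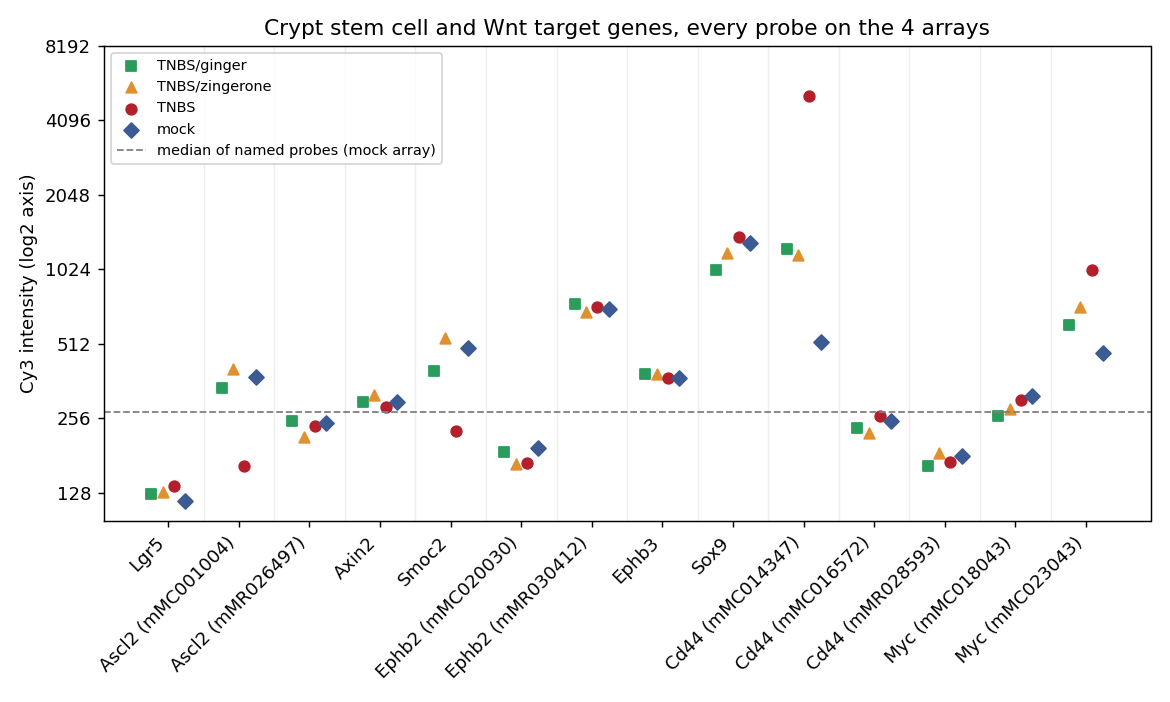
Cy3 intensity (log2 axis) of each of the 14 probes on the TNBS/ginger, TNBS/zingerone, TNBS and mock arrays, with the probe's identifier where a gene has several and a dashed line at the median of the named probes on the mock array. Smoc2 and 1 Ascl2 probe are lowest on the TNBS array, 1 Cd44 and 1 Myc probe are highest there, and the other probes lie close together.

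Among the 3 stem cell genes, Smoc2 and 1 of 2 Ascl2 probes were more than 2-fold lower on TNBS than on mock, and Lgr5 was too dim to compare. Lgr5, the R-spondin receptor that marks crypt base stem cells, was at 127 on the TNBS/ginger array, 128.5 on TNBS/zingerone, 135.75 on TNBS and 118.75 on mock. These values lay between percentiles 4.02 and 10.1 of all probes of their arrays, so Lgr5 was not measured and no change in it was detectable. Ascl2, a transcription factor of Lgr5-positive stem cells, has 2 probes that disagreed. The probe mMC001004 read 339.5 on TNBS/ginger, 403.6 on TNBS/zingerone, 164.5 on TNBS and 376.5 on mock. It was low on the TNBS array alone, 2.29-fold lower than on mock, and there it lay at the 24.9th percentile of all probes. The dim probe mMR026497 read 248.5, 216, 239 and 244 on the same arrays in that order and differed by -0.03 between TNBS and mock (log2). The mean of both probes differed by -0.61, and Ascl2 counted as measured by a margin of only 0.16 (log2).

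Smoc2, a secreted calcium-binding matrix protein of the stem cell signature, has 1 probe and followed the same course as the Ascl2 probe mMC001004. It was at 397.25 on TNBS/ginger, 541.5 on TNBS/zingerone, 227.75 on TNBS and 493.5 on mock. TNBS alone lay apart and below the other arrays, 2.17-fold lower than mock, and was below the limit for a measured probe there. Its TNBS-minus-mock difference ranked 353rd from the lowest among 10056 measured genes. In whole tissue, fewer cells of a type and less RNA per cell cannot be told apart. Epithelial markers moved alongside: 12 of 15 lay below mock on the TNBS array, 2 of them at least 2-fold (Klf5 by -1.31 and Cdx2 by -1.14), and 1, Krt18, was at least 2-fold higher (1.08). Genes of differentiated surface cells had 5 of 10 at least 2-fold lower and none higher, with a median of -1.19, where 4.52% of all measured genes were lower. Among them the carbonic anhydrase gene Car4 was 8.04-fold, the guanylin gene Guca2a 7.45-fold and the chloride exchanger gene Slc26a3 5.69-fold lower. The median of the epithelial markers was -0.53, and their summed intensity was 227610 on TNBS/ginger, 246795 on TNBS/zingerone, 188269 on TNBS and 213299 on mock. The part of the epithelial share in the Smoc2 and Ascl2 values was not tested.

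Axin2, the scaffold of the beta-catenin destruction complex and a feedback target that serves as a readout of Wnt signalling, was level. It was at 299 on TNBS/ginger, 318 on TNBS/zingerone, 284.25 on TNBS and 299 on mock, a difference of -0.07 (log2) between TNBS and mock. Axin2 has 1 probe and counted as measured by a margin of only 0.22 (log2), so a change near the dim end of the scale could be missed. Ephb2 and Ephb3, receptor tyrosine kinases that bind B-type ephrins, were level as well. Ephb3 stood at 387.5 and 387.75 on TNBS/ginger and TNBS/zingerone, 372.75 on TNBS and 373.75 on mock, the narrowest range of the measured members (0.06, log2). The Ephb2 probe mMR030412 read 744.5, 686.25, 723.25 and 706.75 in the same order of arrays, and the dim probe mMC020030 read between 167.75 and 193.75. The ephrin ligands and other EphB receptors had none of 4 measured genes 2-fold apart between TNBS and mock, with Efnb1, a ligand for both receptors, at -0.60.

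Sox9, a transcription factor of the crypt base that is also made outside the epithelium, was bright on every array, at the 89.3rd to 92.4th percentile of all probes. It was at 1021 on TNBS/ginger, 1196 on TNBS/zingerone, 1388 on TNBS and 1308 on mock. TNBS and mock differed by 0.09 (log2). The lowest value was on TNBS/ginger, 1.36-fold below TNBS.

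Cd44, the hyaluronan receptor, had the widest difference of any member, on 1 of its 3 probes. The probe mMC014347 read 1236 on TNBS/ginger, 1172 on TNBS/zingerone, 5128 on TNBS and 522 on mock. It was highest on the TNBS array, 9.82-fold above mock, and moved there to the 98.0th percentile of all probes, against the 78.0th on mock. The dim probes stayed within 0.08 (log2) of mock on the TNBS array. The probe mMC016572 read 233, 224, 261.5 and 249.75 on TNBS/ginger, TNBS/zingerone, TNBS and mock, and mMR028593 read 163.75, 185, 170.25 and 180. The mean of the 3 probes gave a difference of 1.09, and the median of the probes left Cd44 below the level of a measured gene. Disagreement between probes was not limited to Cd44: of 2141 measured genes with several probes, 294 (13.7%) had probes whose TNBS-minus-mock differences lay at least 1 apart (log2).

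Myc, a transcription factor that drives cell growth, was higher on the TNBS array on 1 of its 2 probes. The probe mMC023043 read 607 on TNBS/ginger, 719 on TNBS/zingerone, 1014.75 on TNBS and 468.5 on mock. TNBS lay above the other arrays, 2.17-fold above mock. The probe mMC018043, which was measured too, read 260.6, 278.25, 304 and 313.75 in the same order of arrays and differed by -0.05 (log2). The mean of both differed by 0.53.

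Cd44 and Myc are also made by leukocytes and connective tissue cells, and some markers of both were higher on the TNBS array. Of 13 measured leukocyte markers 4 (S100a9, S100a8, Cd68 and Itgb2) were at least 2-fold higher and none lower, where 5.08% of all measured genes were higher. The macrophage gene Cd68 was 2.28-fold higher, and 5 of the 13 lay below mock by less than 2-fold (Cd3g, Adgre1, Cd79a, Lyz2 and Itgam, between -0.41 and -0.15). On TNBS/zingerone the leukocyte actin regulator Coro1a was 2.58-fold lower than on TNBS. The leukocyte markers had summed intensities of 97280 on TNBS/ginger, 76710 on TNBS/zingerone, 114408 on TNBS and 10979 on mock, most of which came from S100a8 and S100a9 on the 3 arrays other than mock. Ptprc, the pan-leukocyte gene CD45, has a bright probe at 618.5, 496.75, 1133.5 and 489.5 on TNBS/ginger, TNBS/zingerone, TNBS and mock, and a dim one that differed by -0.13 (log2) between TNBS and mock. Cd4, with 1 probe, was not measured, and neither was Csf3r by the mean of its 3 probes. The Csf3r probe mMC025079 alone read 246, 323, 450.75 and 180 on the same arrays, above the limit on TNBS/zingerone and TNBS and 1.32 (log2) higher on TNBS than on mock. Of 10 measured fibroblast and myofibroblast markers 2 were at least 2-fold higher, Vim (5.61-fold) and Thy1 (2.37-fold), and none lower. In all, 8 of the 10 lay above mock and 2 below it, Col1a2 (-0.70) and Col1a1 (-0.11). Their summed intensities were 13713, 12425.5, 28585 and 10169 on the arrays in the order above. Vim alone, which is also made by other cell types, read 6446, 5140, 18998.5 and 3388 of these. The part of these cells in the Cd44 and Myc values was not tested.

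In all, 1 of 8 measured members (Cd44) was at least 2-fold higher on TNBS than on mock and 1 (Smoc2) was lower, against 5.08% and 4.52% of all measured genes. By probe, 2 of 9 were higher (Cd44 and Myc) and 2 lower (Ascl2 and Smoc2), against 5.44% and 4.69% of the 12103 measured named probes. The median difference of the 8 members was -0.04, and that of all measured genes was also -0.04.

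**Figure D2:**
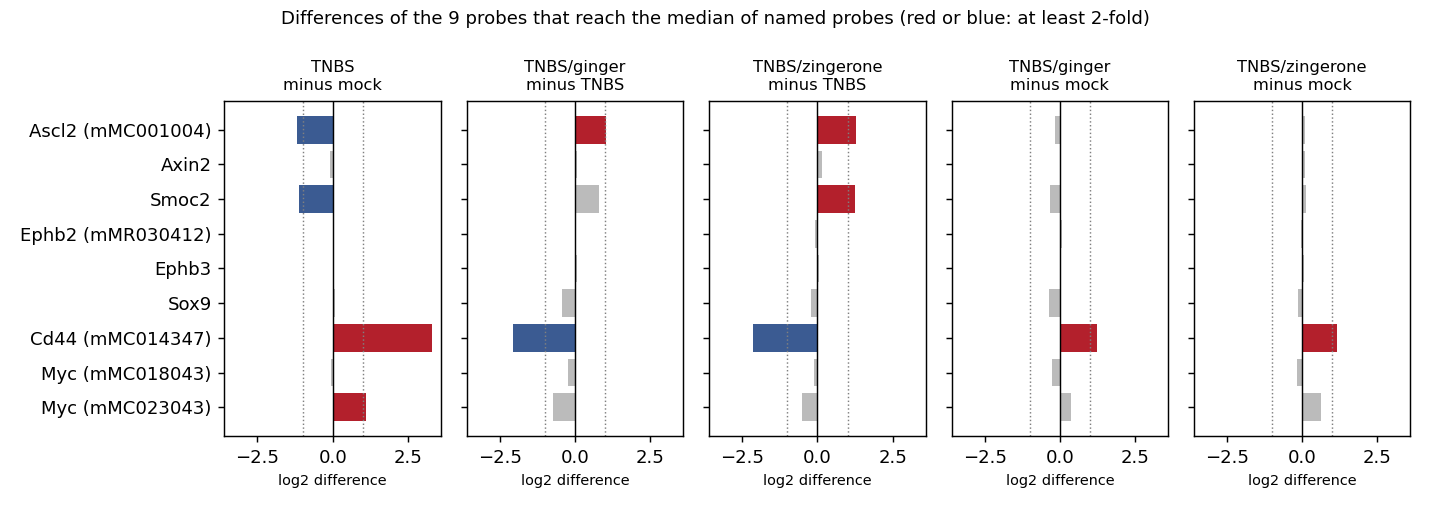
Log2 differences of the 9 measured member probes, for TNBS minus mock, TNBS/ginger minus TNBS, TNBS/zingerone minus TNBS, TNBS/ginger minus mock and TNBS/zingerone minus mock, with red and blue bars for differences of at least 2-fold up and down and dotted lines at 2-fold. Ascl2, Smoc2, Cd44 and Myc differ between TNBS and mock, and against mock the Cd44 probe alone passes 2-fold on the TNBS/ginger and TNBS/zingerone arrays.

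On the TNBS/ginger array none of the 8 measured members lay at least 2-fold from TNBS, where 1.35% of measured genes were higher and 2.48% lower. The nearest were Smoc2, 1.74-fold higher, and Cd44, 1.69-fold lower in the mean of its probes. By probe, 2 of 9 passed 2-fold, against 4.08% of named probes: Ascl2 mMC001004 was 2.06-fold higher and Cd44 mMC014347 4.15-fold lower than on TNBS. Myc mMC023043 was 1.67-fold lower. The median of the members was 0.06, against 0.02 for all measured genes.

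On the TNBS/zingerone array Smoc2 was 2.38-fold higher than on TNBS, the 1 measured member of 8 past 2-fold in that direction, where 4.57% of measured genes passed, and no member was 2-fold lower, where 2.96% passed. By probe, 3 of 9 passed, against 8.16% of named probes: Ascl2 mMC001004 was 2.45-fold higher, Smoc2 2.38-fold higher, and Cd44 mMC014347 4.38-fold lower. The median of the members was 0.01, against -0.02 for all measured genes. These comparisons share the TNBS array with the comparison against mock, so an error of that array would enter each of them.

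Against mock, none of the 8 measured members lay 2-fold apart on TNBS/ginger or on TNBS/zingerone, where 2.7% and 2.59% of measured genes did. By probe, Cd44 mMC014347 alone of 9 passed, 2.37-fold higher on TNBS/ginger and 2.24-fold higher on TNBS/zingerone, against 2.7% and 2.73% of named probes. Ascl2 mMC001004 was within 0.15 (log2) of mock on both arrays. Smoc2 lay at -0.31 on TNBS/ginger and 0.13 on TNBS/zingerone. Between TNBS/ginger and TNBS/zingerone no member differed 2-fold, as 1.1% of measured genes did, and the widest gap was that of Smoc2, at -0.45 (TNBS/ginger minus TNBS/zingerone).

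Few Wnt pathway genes differed 2-fold, as was the case among all genes. Ligands, R-spondins, receptors, inhibitors and core components made up 73 genes on the array, of which 48 were measured. Between TNBS and mock 1 of the 48 was 2-fold or more above mock on the TNBS array and none was below it, against 5.08% and 4.52% of all measured genes, and the median was -0.05. The 1 gene was the Frizzled receptor Fzd4, at 450 on TNBS/ginger, 410 on TNBS/zingerone, 495.75 on TNBS and 75.5 on mock. Its single probe stood apart on the mock array, where it was near the lowest intensity of the scale (74.2).

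Among 11 measured Wnt ligands and secretion factors none differed 2-fold in any of the comparisons of TNBS with mock or of ginger or zingerone with TNBS by the mean of probes. The Wnt5a probe mMC003764 alone, at 242.5, 407.5, 195.5 and 234.5 on TNBS/ginger, TNBS/zingerone, TNBS and mock, was 1.06 (log2) higher on TNBS/zingerone than on TNBS. Of the 4 R-spondins, Rspo3 and Rspo4 were measured. Rspo3, which crypts receive from the stroma, was at 243.5, 240.25, 307.5 and 274.25 on TNBS/ginger, TNBS/zingerone, TNBS and mock. Rspo4 is a mean of unlike probes. Its probe mMR031030 read 15020, 9435, 16011 and 16460 in that order of arrays, and the dim probe mMC004856 read between 187 and 212.75. Ctnnb1, which encodes beta-catenin, was at 5111, 5338, 4826 and 6339 on the same arrays, and none of 13 measured core genes differed 2-fold. Among 12 measured inhibitors none was 2-fold apart between TNBS and mock by the mean of probes. Dkk3 came near it, at 772, 861, 615 and 1217 in that order of arrays. The Kremen1 probe mMC006827 alone read 1160, 991, 1251 and 584 on the same arrays, 1.10 (log2) higher on TNBS than on mock. Its dim partner mMR031106 differed by -0.38. Rnf43, the ubiquitin ligase that removes Frizzled receptors and is itself a Wnt target, was at 628, 603, 518 and 713, and Sfrp5, a secreted antagonist, at 3455, 3385, 2143 and 3916.5. The antagonist Wif1 has a single probe, at 445.5 on TNBS/ginger, 105.25 on TNBS/zingerone, 106 on TNBS and 109 on mock. It was measured on the TNBS/ginger array alone, and no fold is given against values as dim as those of Lgr5.

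Further Wnt targets had 2 of 14 measured genes 2-fold or more above mock on the TNBS array and none below, against 5.08% and 4.52% of all measured genes, and the median was 0.12. Plaur, the urokinase receptor, was at 2176, 1347, 8043 and 379 on TNBS/ginger, TNBS/zingerone, TNBS and mock, 21.2-fold higher on TNBS than on mock. The transcription factor gene Ets2 was at 3061, 3450, 6508 and 2682.5, 2.43-fold higher on TNBS. Cdx1, an intestinal homeobox gene, was 2.14-fold higher on TNBS/ginger and 2.39-fold higher on TNBS/zingerone than on TNBS. Ccnd1, cyclin D1, differed by 0.26 between TNBS and mock (the mean of 4 probes, each above mock), and Slc12a2, a chloride cotransporter of the lower crypt, by -0.55. The feedback target Nkd1 has probes at 0.22 and -0.25.

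**Figure D3:**
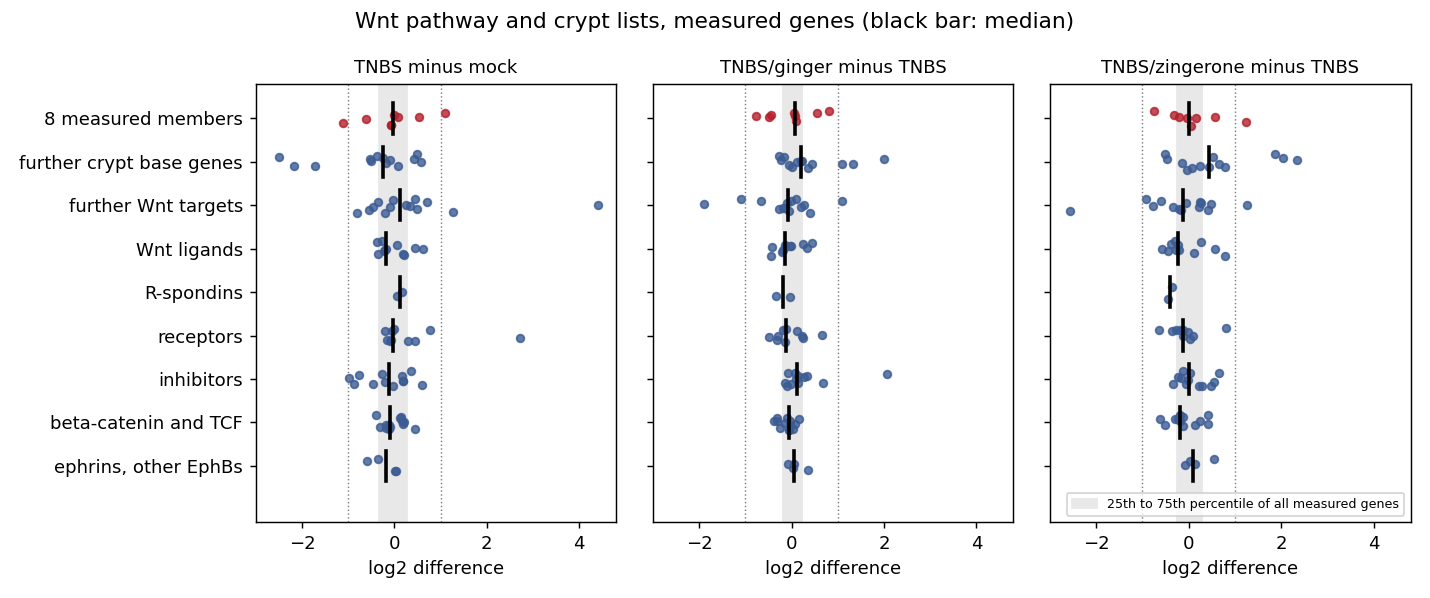
Log2 differences of the measured genes (points) in each Wnt pathway and crypt list for TNBS minus mock, TNBS/ginger minus TNBS and TNBS/zingerone minus TNBS, with the list median as a black bar, the 25th to 75th percentile of all measured genes shaded and dotted lines at 2-fold. Most Wnt ligands, inhibitors and beta-catenin and TCF genes lie near 0, and 3 further crypt base genes lie far below on TNBS minus mock and above in both other panels.

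Further crypt base genes had 3 of 13 measured genes 2-fold or more below mock on the TNBS array and none above, against 4.52% and 5.08% of all measured genes, and the median was -0.24. Reg4, a marker of the deep crypt secretory cells that lie between stem cells in the mouse colon, was at 5744 on TNBS/ginger, 7366.5 on TNBS/zingerone, 1443 on TNBS and 8165 on mock, 5.66-fold lower on TNBS than on mock. Kcne3, a potassium channel subunit of crypt cells that supports chloride secretion, was at 731, 1208, 292 and 1315, and Cdca7, a cell cycle gene of the stem cell signature, at 511, 869.5, 238.25 and 783. TNBS was the lowest array for each of these. On TNBS/ginger and on TNBS/zingerone 3 of 13 were at least 2-fold higher than on TNBS, namely Reg4, Kcne3 and Cdca7, against 1.35% and 4.57% of all measured genes. The stem and progenitor cell genes Lrig1 (-0.52), Msi1 (-0.50), Prom1 (0.16 and -0.37 by probe), Hopx (0.42) and Tert (0.08) did not reach 2-fold between TNBS and mock, and Bmi1, Kit, Aqp4 and Tnfrsf19, with 1 probe each, were not measured. The Prom1 probe mMR029317 alone read 1447, 2456, 1136 and 1468 on TNBS/ginger, TNBS/zingerone, TNBS and mock. It was 1.11 (log2) higher on TNBS/zingerone than on TNBS, where the probe mMC021503 differed by 0.18. Slc14a1, a urea transporter gene, was not measured by the mean of its 4 probes. Its probe mMC009719 alone read 350.25, 288.25, 613.5 and 285.75 on TNBS/ginger, TNBS/zingerone, TNBS and mock, above the limit on every array and 1.10 (log2) higher on TNBS than on mock.

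**Figure D4:**
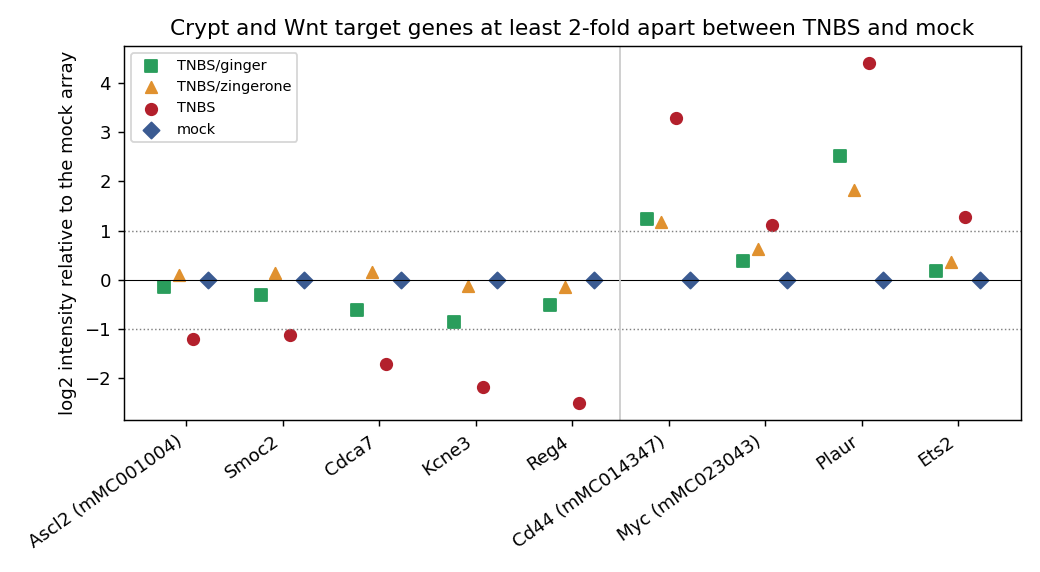
Log2 intensity relative to the mock array for members and listed crypt or Wnt target genes at least 2-fold apart between TNBS and mock, on the TNBS/ginger, TNBS/zingerone, TNBS and mock arrays, with dotted lines at 2-fold. Left of the grey line the TNBS array is lowest for all 5 genes, right of it the TNBS array is highest for all 4, and Cd44 and Plaur stay above 2-fold on the TNBS/ginger and TNBS/zingerone arrays.

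The measured genes nearest to Smoc2 in pattern, by Euclidean distance of log2 levels centred over the 4 arrays, were Tesk2 (distance 0.05), a protein kinase, Pck1 (0.08), the gluconeogenic enzyme PEPCK, and the tight junction gene Cldn3 (0.10). Cldn3 was at 13300 on TNBS/ginger, 17459 on TNBS/zingerone, 7751.5 on TNBS and 15292.5 on mock. Nearest to the probe mean of Cd44 were Msantd3 (0.02), the endosomal protein gene Washc2 (0.05) and the choline kinase gene Chka (0.05), each with 1 probe. Likeness over 4 arrays among 10056 genes is weak, and for Cd44 it rests on a mean of unlike probes. The other measured members had a range below 1 (log2) and were not matched.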

How the data were processed

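The authors deposited 1 table with a Cy3 intensity per probe and array. Per the labels' protocols, RNA was amplified and labelled with Cy3, and limma is listed in the submitters' processing notes, with neither version nor role. No source used here states how background or normalization was handled. Once sorted, the arrays' deposited intensity values are within 1.84% of each other, as quantile normalization would leave them, which removes any shift shared by most probes of an array. The lowest is 74.2.

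Platform symbols were brought up to date by RefSeq synonyms (17558 current, 3410 updated, 52 kept). Intensities were taken to log2 without a pseudocount and probes of 1 gene were averaged (Python 3.11.15, pandas 2.3.3). With 1 array per group no test was run. The steps were tested on simulated data. Named genes are the 9 members, of each list the up to 3 measured genes with the largest TNBS-minus-mock difference and the up to 2 with the largest ginger or zingerone difference from TNBS, among those 2-fold apart, and, for members with a log2 range of at least 1, the 3 nearest patterns. Members with several probes are given by probe. Of the other listed genes with probes of opposite sign only some are. Muc2, Mylk, Wwtr1, Sfrp1 and Rplp0, for example, enter their lists by the mean of their probes alone. Other genes, such as Rspo3, Ctnnb1, Dkk3, Rnf43, Sfrp5, Efnb1, Ptprc, Csf3r, Slc14a1, Wnt5a, Ccnd1, Slc12a2, Nkd1, Lrig1 and those said not to reach 2-fold, were chosen after their values were seen. So were Kremen1, Rspo4, Acta2, Col1a1 and Col1a2. The members and the 19 other lists were chosen with earlier results of these data known. The 9 alternative settings changed normalization, floor, background, filter and probe summary.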

Additional observations from a re-analysis of the deposited data

How the results depend on the processing

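Under the 9 alternative settings no called member difference changed sign where its gene stayed measured. Of 396 values of member differences under alternatives that left the gene measured, 384 kept their side of 2-fold and 12 passed it under an alternative alone. Calls lost because a gene was no longer measured are not among these values. This was so for Smoc2 under the filter at the 75th percentile and for Cd44 under the median of probes. Taking the brightest probe per gene, members at least 2-fold apart numbered 4 between TNBS and mock (2 as reported), 2 between TNBS/ginger and TNBS (0), 3 between TNBS/zingerone and TNBS (1), 1 between TNBS/ginger and mock (0) and 1 between TNBS/zingerone and mock (0). This setting shows the bright Ascl2, Cd44 and Myc probes without their dim partners. After subtracting each array's 5th percentile and raising values under 50 to 50, 2 members differed between TNBS/ginger and TNBS and 2 between TNBS/zingerone and TNBS, since Ascl2 and, on ginger, Smoc2 passed 2-fold. Ascl2 also passed 2-fold between TNBS and mock after this subtraction, at -1.20, beside Smoc2 and Cd44. With a filter at the 75th percentile 1 member differed between TNBS and mock and 0 between TNBS/zingerone and TNBS. Smoc2 was no longer measured under this filter, and neither were Ascl2, Axin2, Ephb2 and Ephb3. Only Sox9, Cd44 and Myc stayed measured there. The subtraction also raised the count of all measured genes 2-fold apart between TNBS and mock to 1696 (966 as reported) and moved the other 5 counts of all genes by over 1.5 times. TNBS/zingerone against TNBS gave 1497 (758). The median of probes gave 1 between TNBS and mock, Cd44 no longer being measured. Each member count was unchanged by quantile normalization, by scaling arrays to 1 median, by raising values to the 25th percentile, without a filter, and without probes that stand apart on 1 array. Ranges of the TNBS-minus-mock difference cover only the settings that left the gene measured. They were -1.82 to -1.12 for Smoc2, -1.20 to -0.61 for Ascl2, 1.09 to 3.30 for Cd44 and 0.53 to 1.12 for Myc. Of 1026 list counts 981 stayed within 1.5 times. After the subtraction the lists held, between TNBS and mock, 4 further Wnt targets (2 as reported), 3 inhibitors (0), 2 receptors (1), 1 ligand (0), 5 BMP and Notch genes (3) and 4 fibroblast markers (2) at least 2-fold apart. It also gave 3 ligands (0) between TNBS/zingerone and TNBS and 3 cell division genes (1) between TNBS/ginger and TNBS. By the brightest probe, 1 ligand (0) and 5 further crypt base genes (3) differed between TNBS/zingerone and TNBS and 1 inhibitor (0) between TNBS and mock. The crypt base genes added were Prom1, higher on TNBS/zingerone than on TNBS (1.11, log2), and Slc14a1, lower there (-1.09). Leaving out probes that stand apart on 1 array removed Fzd4 and Wif1, which gave 0 receptors between TNBS and mock and 0 inhibitors between TNBS/ginger and TNBS. No paired analysis was possible because each group has 1 array. Leaving out an array would leave its group empty.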

Other observations

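Of 16 measured genes of a list of fetal-type and YAP-associated genes tied to crypt regeneration after injury, 11 were 2-fold or more above mock on the TNBS array and none below, with a median of 1.36 (log2), where 5.08% of all measured genes were higher. The secreted protein gene Spp1 was at 661 on TNBS/ginger, 483 on TNBS/zingerone, 2691.5 on TNBS and 176 on mock. The matrix-associated YAP target Ccn2 was at 1273, 1410, 5439.5 and 491, and Anxa1, which encodes annexin A1, at 13791, 12842.5, 37843 and 6250 on the same arrays. Clu was 2.25-fold higher on TNBS than on mock, Ly6a differed by 0.53 and Yap1 by 0.10. Many of these genes are also made by stromal or immune cells, whose part was not tested. The list, like the others, was chosen with earlier results of these data known, so its counts are descriptive only. On TNBS/ginger 8 and on TNBS/zingerone 7 of the 16 were at least 2-fold above mock, where 2.7% and 2.59% of all measured genes differed 2-fold in either direction.

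Cell division genes, which mark the dividing cells of the crypt, had 1 of 15 measured genes 2-fold lower on TNBS than on mock, where 4.52% of all measured genes were lower (Mcm5, at 1733 on TNBS/ginger, 1549 on TNBS/zingerone, 724 on TNBS and 2151 on mock), with a median of -0.16. Against TNBS the median was 0.50 on TNBS/ginger and 0.52 on TNBS/zingerone, and reference genes had medians of 0.26 and 0.41. On TNBS/ginger 1 gene was at least 2-fold higher (3 after subtracting each array's 5th percentile), against 1.35% of all measured genes. On TNBS/zingerone 3 were, against 4.57%, among them the mitotic kinase gene Plk1 (2.11-fold).

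BMP and Notch pathway genes had 3 of 15 measured genes at least 2-fold higher on TNBS than on mock and none lower, against 5.08% and 4.52% of all measured genes. They were Notch1, at 450, 441, 1009 and 342.5 on TNBS/ginger, TNBS/zingerone, TNBS and mock, the BMP antagonist Grem1, at 299, 315, 476 and 203.5, and Id2, at 406.5, 374, 756.5 and 332.5. The median of the list was -0.07.

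Of the remaining cell type lists, 2 of 4 measured endothelial genes (Eng and Egfl7) were at least 2-fold higher on TNBS than on mock, where 5.08% of all measured genes were, and none lower. None of 9 smooth muscle genes, 3 enteric neuron and glia genes or 5 reference genes differed 2-fold there by the mean of probes. Of the 4 Acta2 probes mMC021908 alone passed 2-fold, at 164.5 on TNBS and 393 on mock (-1.26, log2). On TNBS/zingerone 2 of the 9 smooth muscle genes, Des and Actg2, were at least 2-fold lower than on TNBS, where 2.96% of all measured genes were.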
